A study of Mus musculus with 18 samples.

Results

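The genes described here are 55 genes of mitosis, the division of a cell's duplicated chromosomes between its daughters. They were taken by gene symbol from a list of mitosis genes, out of 41079 genes in the count tables. The list runs from the kinases that start mitosis through the spindle checkpoint, anaphase, the kinetochore and the spindle to cytokinesis and chromosome structure. All 55 were present in every library, with at least 201 fragments each. Their symbols were matched in both tables, and each passed the filter on low counts in each fit.

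Transcripts were counted in 18 libraries of cKit+ mouse bone marrow cells, in 6 groups of 3. One genotype carried AE9a, the leukaemia oncogene made by alternative splicing of AML1-ETO, which fuses RUNX1 to RUNX1T1. These cells had received C16, RE or the solvent DMSO, and wild-type (WT) cells had received the same 3 treatments. The study asked how transcription in these cells answers to inhibition of WDR5 and MLL1, partners in a histone methyltransferase complex. The target, dose and duration of C16 and of RE are not given in the labels, nor are the age of the mice or the way AE9a was introduced. Nothing says that replicates are separate animals or cultures, so p-values may measure only a technical spread. AE9a and WT counts were deposited as 2 tables, so genotype and any difference in preparation cannot be told apart. In bulk RNA, fewer dividing cells and less mitotic RNA per dividing cell cannot be told apart either.

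Library totals ran from 16053727 to 27207748 fragments. Runx1t1, which the fusion includes, had 0.211 to 4.22 CPM (the usual unit of fragments scaled to library size, here over all 18 libraries) in AE9a C16 libraries, 35.4 to 44.9 CPM in AE9a RE and 33.4 to 46.2 CPM in AE9a DMSO libraries, against 0 to 0.388 CPM in the 9 WT libraries. AE9a C16 replicate 3, with 4 Runx1t1 fragments, thus lay in the WT range. Kit, the marker of the selection, was present in all libraries, at 221 to 324, 1360 to 1620 and 858 to 1190 CPM in AE9a C16, RE and DMSO cells and at 59.6 to 213 CPM in WT cells. WT replicate 2 stood apart from WT replicates 1 and 3 under each treatment. Its summed megakaryocyte markers reached 316 to 557 CPM against 2620 to 10900 CPM in the other WT libraries, and its summed neutrophil markers 12300 to 26200 CPM against 3430 to 5070 CPM. Over all genes, WT C16 replicate 2 also resembled AE9a C16 more than WT C16: its root mean square log2 difference was 0.51 to AE9a C16 replicate 1, against 0.91 and 0.96 to the other WT C16 replicates. Results that rest on WT cells are therefore given with and without WT replicate 2.

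Entry into mitosis is driven by cyclin B bound to the kinase Cdk1, helped by the Polo and Aurora kinases. The checkpoint proteins hold anaphase back until every kinetochore is attached to the spindle, after which Cdc20 and the anaphase-promoting complex mark securin and cyclin B for destruction. Many of the genes are transcribed in a wave in G2 and M phase, and a CHR element close to the transcription start, often with CCAAT boxes upstream, is the known promoter feature of that wave. In bone marrow, rapidly dividing progenitors express them, and cells that leave the cycle shut them down.

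The promoters of 48 of the 55 genes were found in RefSeq's annotation of GRCm38.p6, as 51 windows of 300 bases, from 250 bases before to 50 after the transcription start. The 7 genes without an entry were Foxm1, Kif20a, Ccna2, Tpx2, Aurkb, Smc4 and Incenp. The windows of 6 genes follow, 5′ to 3′ on the gene's strand, because these genes carry the results below: Cdc20 had one of the 2 largest C16 responses, Ccnb1, Cdk1 and Plk1 start mitosis, Top2a has the most CHR matches of these, and Pttg1 is the gene that did not move with the others. Capitals mark the CHR letters TTTGAA or TTCGAA and the CCAAT letters, each on either strand, so that TTCAAA and ATTGG are their reverse forms. The windows are chr4:118437294-118437593 (minus strand, Cdc20), chr13:100786437-100786736 (minus, Ccnb1), chr10:69352863-69353162 (minus, Cdk1), chr7:122159185-122159484 (plus, Plk1), chr11:99024140-99024439 (minus, Top2a) and chr11:43425932-43426231 (minus, Pttg1).
Cdc20: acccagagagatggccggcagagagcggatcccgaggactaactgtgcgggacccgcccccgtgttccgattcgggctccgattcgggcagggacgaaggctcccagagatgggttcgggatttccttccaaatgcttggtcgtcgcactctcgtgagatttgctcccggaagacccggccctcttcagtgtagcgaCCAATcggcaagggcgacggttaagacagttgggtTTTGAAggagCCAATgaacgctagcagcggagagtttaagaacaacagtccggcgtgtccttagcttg
Ccnb1: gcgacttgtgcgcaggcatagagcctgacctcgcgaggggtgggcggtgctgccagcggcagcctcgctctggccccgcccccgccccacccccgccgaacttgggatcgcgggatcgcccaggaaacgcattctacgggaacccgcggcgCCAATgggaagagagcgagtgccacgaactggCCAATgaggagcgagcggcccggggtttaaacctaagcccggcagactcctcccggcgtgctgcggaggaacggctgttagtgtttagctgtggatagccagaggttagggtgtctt
Cdk1: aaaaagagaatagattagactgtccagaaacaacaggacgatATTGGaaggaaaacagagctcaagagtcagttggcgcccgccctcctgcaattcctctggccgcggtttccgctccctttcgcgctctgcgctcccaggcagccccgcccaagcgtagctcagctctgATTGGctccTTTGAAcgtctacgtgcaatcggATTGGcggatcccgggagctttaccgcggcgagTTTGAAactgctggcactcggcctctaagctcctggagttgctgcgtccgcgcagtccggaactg
Plk1: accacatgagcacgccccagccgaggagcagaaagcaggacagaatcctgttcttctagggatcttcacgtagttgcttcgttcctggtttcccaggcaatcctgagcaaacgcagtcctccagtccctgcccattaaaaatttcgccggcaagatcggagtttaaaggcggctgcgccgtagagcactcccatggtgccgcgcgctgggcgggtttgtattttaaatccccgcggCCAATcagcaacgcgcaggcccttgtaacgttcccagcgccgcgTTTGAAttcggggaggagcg
Top2a: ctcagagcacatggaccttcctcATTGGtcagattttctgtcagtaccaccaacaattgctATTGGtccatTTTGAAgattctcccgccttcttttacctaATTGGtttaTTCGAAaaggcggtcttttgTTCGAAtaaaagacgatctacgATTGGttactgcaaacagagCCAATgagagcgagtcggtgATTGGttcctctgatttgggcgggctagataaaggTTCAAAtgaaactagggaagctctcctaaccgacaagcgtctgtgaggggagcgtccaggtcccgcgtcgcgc
Pttg1: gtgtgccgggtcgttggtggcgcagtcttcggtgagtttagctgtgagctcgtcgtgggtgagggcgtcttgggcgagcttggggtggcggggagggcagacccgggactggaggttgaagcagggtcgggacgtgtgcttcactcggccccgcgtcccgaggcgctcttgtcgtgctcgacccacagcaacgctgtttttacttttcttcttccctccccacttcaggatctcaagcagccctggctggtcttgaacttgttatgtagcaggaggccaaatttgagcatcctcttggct

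The Cdc20 window holds 1 CHR match and 2 CCAAT matches, Cdk1 holds 2 and 3, Plk1 holds 1 and 1, and Top2a holds 4 and 6. Ccnb1 holds 2 CCAAT matches and 0 CHR matches of these letters, and the Pttg1 window holds 0 of both. The GRCm38.p6 windows were not checked against the GRCm39 genes that were counted. Which transcription starts these cells used was not tested, so the Pttg1 window may not be the one in use. Over the 51 windows, 82.4% held a CHR match, against 14.5% of 14092 windows of the other genes tested in AE9a cells and 19.2% of all 32851 windows of the table. CCAAT stood in 74.5% of the mitosis windows, against 37.2% of the other tested windows and 37.4% of all. Both motifs together stood in 68.6%, against 5.76% and 7.52%. In windows of other mitosis genes and of DNA replication genes, CCAAT stood in 58.7% and 56.6%, a CHR match in 38.5% and 20.8%, and both in 25.7% and 11.3%. The CHR matches gathered near the start: 29 of 58, or 50%, lay between 60 bases before and 20 bases after it, against 20.4% of the 2242 matches in other tested windows. Windows of the same gene can overlap, so a site was counted in each of them, as for Ect2, Prc1 and Bub3. The 58 matches are thus not all separate sites. The GC box GGGCGG, searched on both strands, stood in 78.4% of the mitosis windows, 57.7% of other tested windows and 35.7% of all. It stood in 67.9% of the windows of other mitosis genes and in 67.9% of those of DNA replication genes. TATAAA, also on both strands, stood in 1.96%, 7.54% and 13.6%. The letters TTCCCGC or TTGGCGC, a core of E2F sites, stood in 17.6% of the mitosis windows and in 45.3% of the windows of DNA replication genes. They stood in 11% of the other tested windows and in 6.81% of all. These matches describe letters in a window and not binding. Matches of different motifs were counted separately, also where they share bases.

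The mitosis genes moved in opposite directions under the 2 compounds in AE9a cells. C16 raised nearly all of them, led by Cdc20, the activator of the anaphase-promoting complex, Aurka, the centrosomal Aurora kinase, and Kif20a, a kinesin of the central spindle. RE lowered nearly all of them, most of all Foxm1, the transcription factor of the G2/M wave, Anln, an actin-binding protein of the cleavage furrow, and Knl1, a kinetochore scaffold. Pttg1, the securin that blocks separase until anaphase, followed neither direction.

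The summed level of the 55 genes was 9868.5, 9713.1 and 9933.2 CPM in the AE9a C16 libraries, and 4366.6, 4005.4 and 4090.2 CPM in the AE9a RE libraries, against 6161.6, 5274.2 and 5913.9 CPM in the AE9a DMSO libraries. The AE9a groups did not overlap. In WT cells the sum was 5288.6, 9215 and 5029.5 CPM under C16 and 4722.9, 7642 and 4799.6 CPM under RE, against 4954.2, 8222.3 and 5337.9 CPM under DMSO. The second replicate was the highest of each WT group, and the WT groups overlapped. Between WT libraries of the same replicate number, the sum was lower under RE than under DMSO in 3 of 3 pairs, and higher under C16 than under DMSO in 2 of 3.

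**Figure D1:**
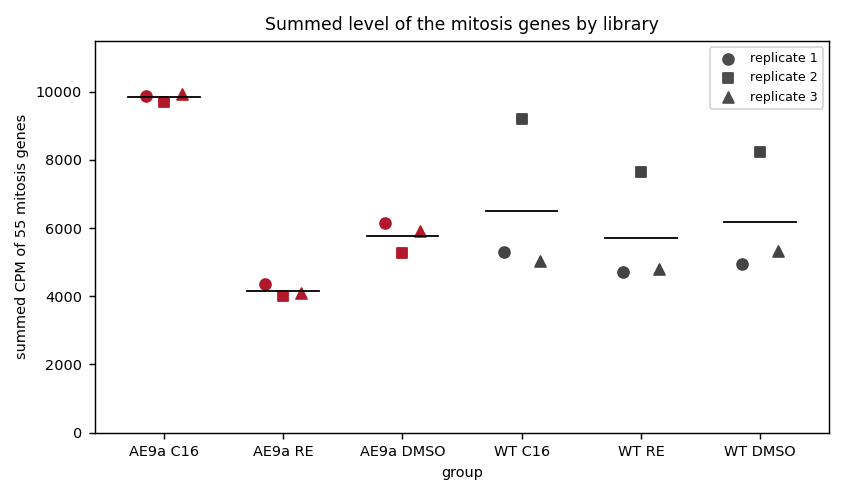
Summed CPM of the 55 mitosis genes (vertical axis) in each of the 18 libraries, by group (horizontal axis). Symbols give the replicate number and lines the group means: AE9a C16 libraries lie between 9713.1 and 9933.2 CPM, above all AE9a RE and DMSO libraries, and replicate 2 is the highest WT library under each treatment.

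Among the AE9a libraries, 54 of the 55 genes had all 3 C16 libraries above all 3 DMSO libraries and these above all 3 RE libraries, as had 16.2% of all genes tested. Taken singly, 38.8% of all genes had C16 libraries above the DMSO libraries and 21.5% had RE libraries below them, without overlap. Across the whole series, 38 of the 55 had all 3 AE9a C16 libraries above the 15 other libraries (11.9% of all genes), and 35 had all 3 AE9a RE libraries below the 15 others (6.09% of all genes). The spread within AE9a groups was small, with a median coefficient of variation over the 55 genes of 3.21% under C16, 5.24% under RE and 8.84% under DMSO. It was 37.2%, 25.9% and 28.9% in WT cells, where replicate 2 lay apart. Per length of exon, the highest levels in AE9a DMSO cells were 108 ± 8.02 FPKM (CPM per kilobase of exon, mean ± SD, n = 3) for Top2a, which untangles DNA, 105 ± 4.3 FPKM for Cks2, a small partner of Cdk1, and 89.0 ± 3.5 FPKM for Ube2c, which builds ubiquitin chains with the anaphase-promoting complex. Top2a and Cks2 did not differ beyond their spread. The lowest were Kif4, a chromosome-bound kinesin, at 6.09 ± 0.565 FPKM, and Aspm, a spindle pole protein, at 5.14 ± 0.438 FPKM.

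**Figure D2:**
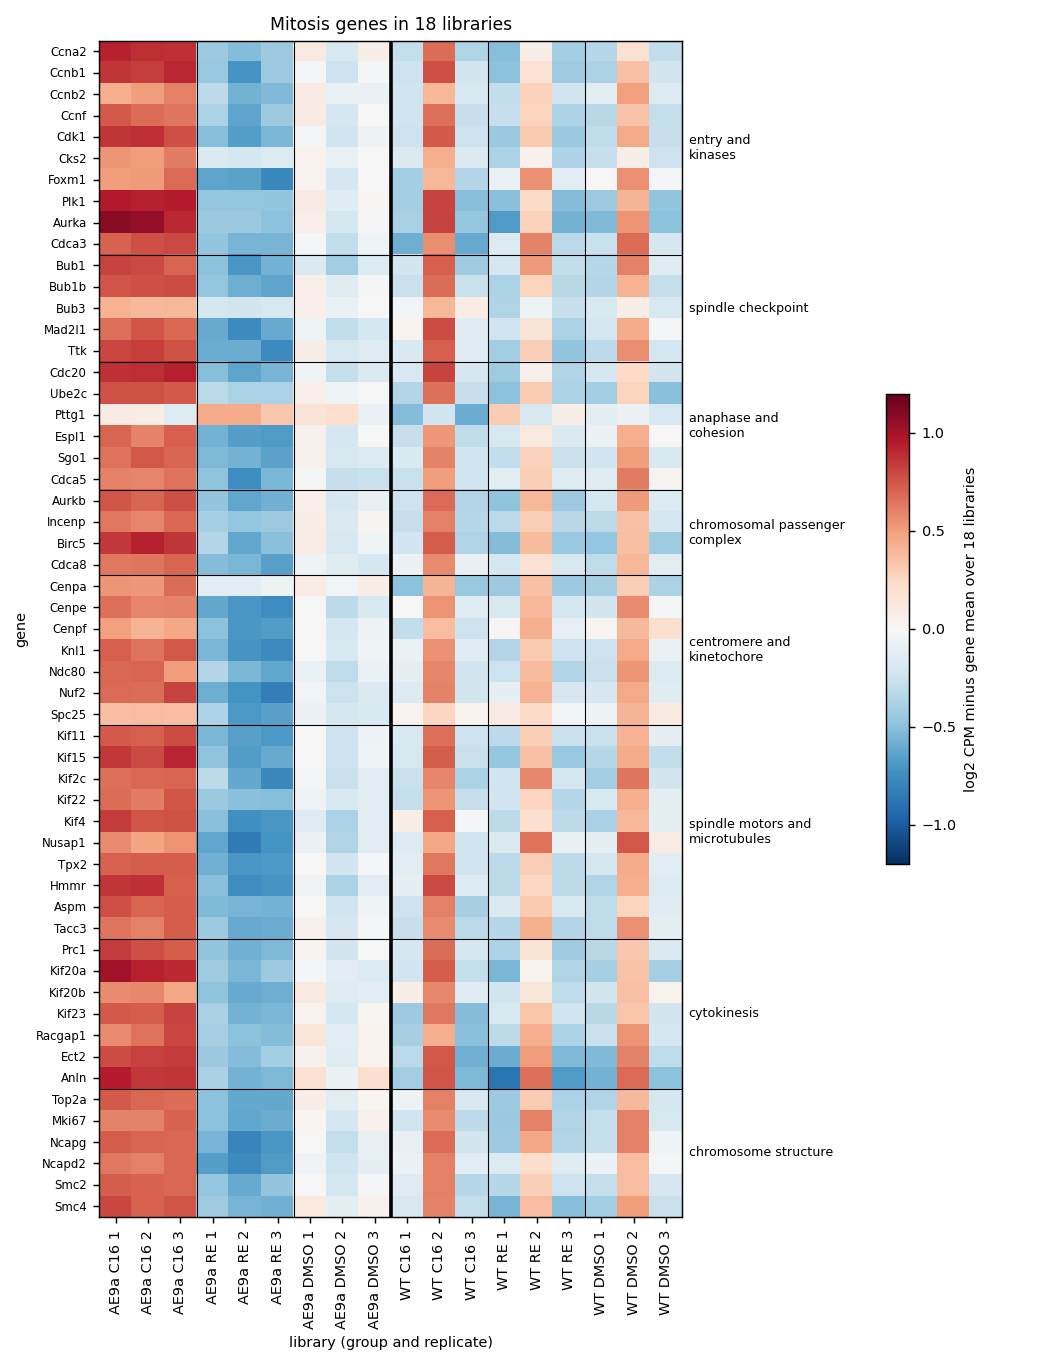
Level of each of the 55 mitosis genes (rows, grouped by role) in each library (columns), as log2 CPM minus the gene's mean over the 18 libraries. Red is above and blue below that mean: the AE9a C16 columns are red and the AE9a RE columns blue in nearly every row, WT replicate 2 is red under all 3 treatments, and the Pttg1 row stands out.

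By edgeR's quasi-likelihood test with Benjamini-Hochberg adjustment over all 14704 genes tested, at a threshold of 0.05, C16 over DMSO in AE9a cells raised 54 of the 55 genes and lowered 0. Over all genes tested, 33.1% rose and 33.2% fell. The median log2 change of the 55 genes was 0.75, from −0.13 to 1.02, against a median of 0 over all genes tested. Of those called, 46 were past 1.5-fold and 2 past 2-fold. Of all 14704 genes tested, 1826 were called higher past 1.5-fold and 424 past 2-fold. Without AE9a C16 replicate 3, the library with Runx1t1 in the WT range, 54 genes rose again and the median was 0.74. RE over DMSO raised 0 and lowered 54, where 12.2% of all genes tested rose and 16.8% fell. The median was −0.51, from −0.66 to 0.27, against −0.01 over all genes tested. Called lower past 1.5-fold were 10 of the 55 genes and 502 of all genes tested. In 1 fit of all 18 libraries, which shares the larger spread of the WT cells, 0 genes were called lower under RE and 49 higher under C16. The counts of this fit and of that without AE9a C16 replicate 3 stand without the share of all genes called there. What is particular to the mitosis genes cannot be read from them. C16 over RE gave 54 higher and 1 lower, where 37.5% of all genes tested were higher and 37.2% lower. It compares no DMSO library, although the DMSO libraries enter the scaling and the estimate of spread of its fit. The median was 1.27, and 49 of the 55 genes and 1363 of all genes tested were called higher past 2-fold. Both comparisons with DMSO share its 3 libraries, so their opposite directions are not independent.

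Marker genes of cell types also differed between the AE9a groups, not all in the directions of the mitosis genes. The summed level of 10 mast cell and basophil markers was 290 to 1890 CPM under C16, 12900 to 14900 CPM under RE and 7640 to 10000 CPM under DMSO. Of the 10, 8 fell and 0 rose under C16, while 0 were called under RE (median log2 0.46, from −1.39 to 0.91). The 13 erythroid markers summed to 27.6 to 78.8 CPM under C16, 592 to 723 CPM under RE and 854 to 1110 CPM under DMSO. Under C16 12 of the 13 fell, and under RE 4 fell and 0 rose (median −0.38, from −1.44 to 0.69). The 9 megakaryocyte markers summed to 60.5 to 156 CPM under C16, 437 to 560 CPM under RE and 260 to 380 CPM under DMSO, and 6 of the 9 fell under C16 while 1 rose under RE. The 8 monocyte and macrophage markers summed to 1120 to 1490 CPM under C16, 625 to 920 CPM under RE and 1090 to 1160 CPM under DMSO, with 2 of the 8 higher under C16 and 5 lower under RE. For a pair of lists the sum and most members went different ways. The 12 neutrophil markers summed to 10300 to 12400 CPM under C16, 4910 to 6390 CPM under RE and 5530 to 6150 CPM under DMSO, yet under C16 only 4 rose and 6 fell (median log2 −0.92), and under RE 3 rose and 4 fell (median 0.06). The 9 progenitor markers summed to 924 to 1110 CPM under C16, 2610 to 3030 CPM under RE and 1980 to 2500 CPM under DMSO, yet under C16 4 rose and 2 fell (median 0.32), and under RE 1 rose and 5 fell (median −0.20). None of these 6 lists had a gene at 0 fragments in an AE9a group. The 10 T and NK markers, among which Cd3e was at 0 fragments, summed to 54.7 CPM at most in AE9a cells. The part of cell type composition in the mitosis results was not tested.

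**Figure D3:**
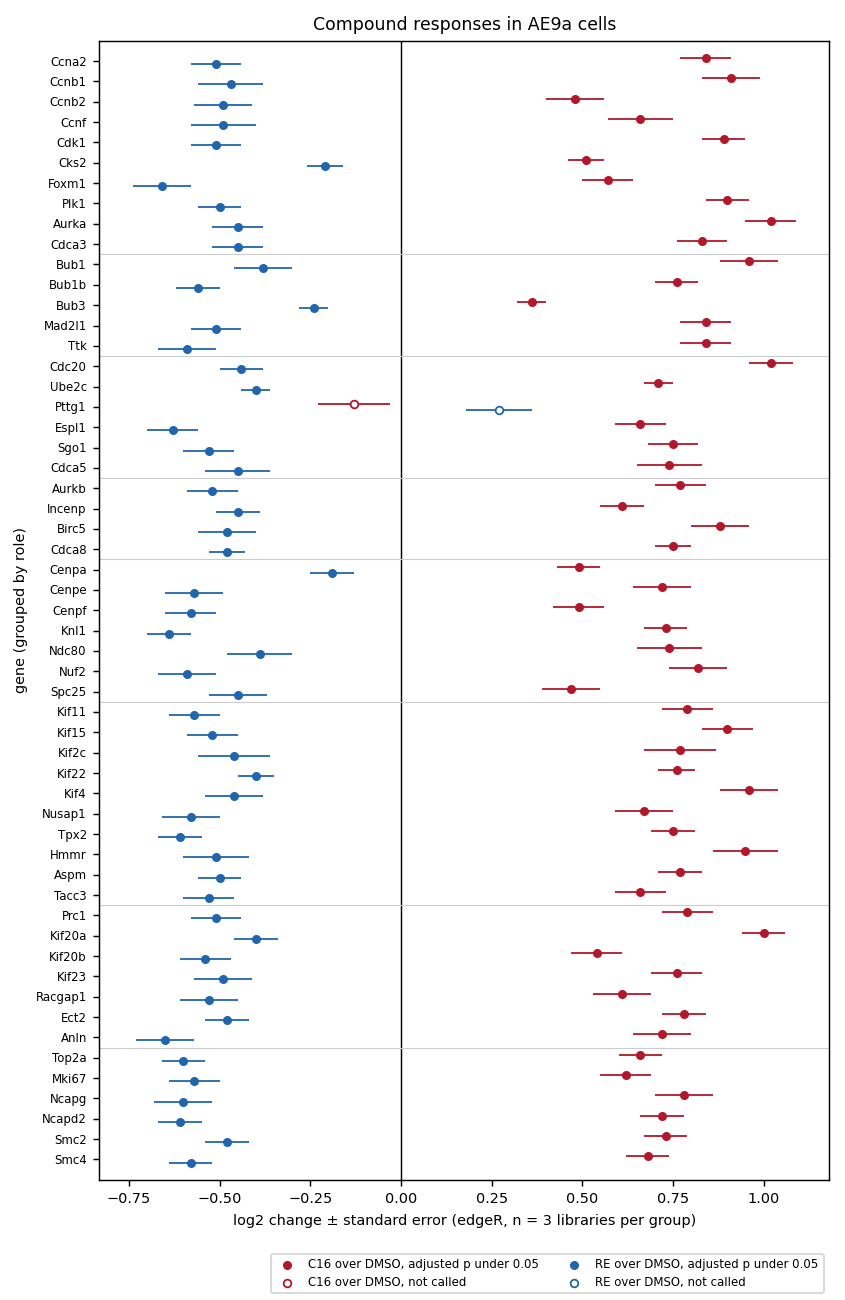
Log2 change ± standard error of each mitosis gene (rows, grouped by role) for C16 over DMSO (red) and RE over DMSO (blue) in AE9a cells, 3 libraries per group. All genes except Pttg1 lie right of 0 under C16 and left of 0 under RE, and filled points have an adjusted p under 0.05.

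The 10 genes of mitotic entry, namely the cyclins Ccna2, Ccnb1, Ccnb2 and Ccnf, the kinases Cdk1, Plk1 and Aurka, the Cdk1 partner Cks2, the transcription factor Foxm1 and Cdca3, all rose under C16 (median log2 0.83) and all fell under RE (median −0.49). Ccnb1 (chr13:100915247-100922994, GRCm39), the cyclin that activates Cdk1, had 244, 239 and 251 CPM under C16 and 98.1, 82.2 and 99.3 CPM under RE, against 132, 113 and 132 CPM under DMSO. Its groups did not overlap, and its log2 change was 0.91 ± 0.08 (SE, edgeR adjusted p = 1.5e-05) under C16 and −0.47 ± 0.09 (adjusted p = 0.0044) under RE. Cdk1 (chr10:69170976-69188742) had 189, 192 and 178 CPM under C16 and 73.1, 66.1 and 71.3 CPM under RE, against 103, 89 and 100 CPM under DMSO, so that its level moved with that of its cyclin. It changed by 0.89 ± 0.06 (adjusted p = 4.1e-06) and −0.51 ± 0.07 (adjusted p = 0.0012). Plk1 (chr7:121758658-121769107), the Polo kinase, had 172, 169 and 170 CPM under C16 and 64.1, 64.2 and 63.7 CPM under RE, against 94.8, 80.3 and 90 CPM under DMSO. The treated libraries of Plk1 lay closer together than its DMSO libraries, and its changes were 0.90 ± 0.06 (adjusted p = 2.5e-06) and −0.50 ± 0.06 (adjusted p = 8e-04).

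Aurka (chr2:172198116-172212825) had 128, 126 and 113 CPM under C16 and 44.4, 44.4 and 43 CPM under RE, against 63.3, 52.3 and 59.7 CPM under DMSO. It rose by 1.02 ± 0.07 under C16 (adjusted p = 3.9e-06), although 8.34% of its exon bases overlap Cstf1 and its count is uncertain to that extent. Foxm1 (chr6:128339957-128352849) was the gene RE lowered most. It had 80.8, 81.5 and 91.1 CPM under C16 and 36.8, 36.6 and 33.4 CPM under RE, against 58.3, 49.5 and 57 CPM under DMSO, with changes of 0.57 ± 0.07 (adjusted p = 0.00011) and −0.66 ± 0.08 (adjusted p = 0.00082). Its C16 response was thus below the median of the 55 genes and its RE response the furthest from 0. Cks2 was among the genes RE moved least, with 65.3, 63.6 and 65.9 CPM under RE against 75.6, 69.7 and 73.4 CPM under DMSO, without overlap (log2 −0.21 ± 0.05, adjusted p = 0.014).

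All 5 spindle checkpoint genes, Bub1, Bub1b, Bub3, Mad2l1 and Ttk, rose under C16 (median 0.84) and fell under RE (median −0.51). Bub1 (chr2:127642117-127673790), a checkpoint kinase at kinetochores, had 178, 176 and 164 CPM under C16 and 72.2, 62.3 and 68.2 CPM under RE, against 90.1, 76.1 and 90.6 CPM under DMSO. It changed by 0.96 ± 0.08 (adjusted p = 7.3e-06) and −0.38 ± 0.08 (adjusted p = 0.0082), so its C16 response stood near the top of the 55 genes and its RE response near the weak end. Bub3 (chr7:131162081-131173625), the partner that brings Bub1 and Bub1b to kinetochores, had the smallest rise of those called: 185, 181 and 183 CPM under C16 against 144, 131 and 138 CPM under DMSO (0.36 ± 0.04, adjusted p = 4.7e-05). Its RE libraries, at 120, 119 and 121 CPM, lay below all DMSO libraries.

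The 6 genes of anaphase and cohesion were Cdc20, Ube2c, the securin Pttg1, the separase Espl1, and the cohesin guards Sgo1 and Cdca5, and 5 of them rose under C16 and fell under RE. Cdc20 (chr4:118290098-118294540) had 157, 159 and 164 CPM under C16 and 60, 55.4 and 58.1 CPM under RE, against 82.9, 70.6 and 75.9 CPM under DMSO. No library of one group reached another group, and the changes were 1.02 ± 0.06 (2.02-fold, adjusted p = 2.1e-06) and −0.44 ± 0.06 (adjusted p = 0.0016). Pttg1 (chr11:43311097-43317417) was the exception. It had 17.2, 17.1 and 14.4 CPM under C16 and 21.9, 21.8 and 20.2 CPM under RE, against 17.9, 18.4 and 15.2 CPM under DMSO. C16 and DMSO libraries overlapped (−0.13 ± 0.10, adjusted p = 0.27), whereas all RE libraries lay above all others (0.27 ± 0.09, adjusted p = 0.059, and called higher with the replicate number as a block, as were 13.6% of all genes). C16 over RE lowered it by 0.40 ± 0.10 on the log2 scale (adjusted p = 0.0039), against the direction of the other 54 genes. Pttg1 was also among the least abundant of them per length, at 7.92 ± 0.804 FPKM in AE9a DMSO cells.

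The chromosomal passenger complex, which corrects wrong attachments and later guides cytokinesis, was represented by its kinase Aurkb and its partners Incenp, Birc5 and Cdca8. All 4 rose under C16 (median 0.76, from 0.61 to 0.88) and fell under RE (median −0.48). Aurkb (chr11:68936477-68942490) had 125, 120 and 126 CPM under C16 and 53.3, 48 and 49.5 CPM under RE, against 76.9, 64.4 and 69.4 CPM under DMSO, without overlap. Its changes were 0.77 ± 0.07 (adjusted p = 1e-05) and −0.52 ± 0.07 (adjusted p = 0.0013).

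Of the centromere and kinetochore genes, the centromeric histone Cenpa, the motor Cenpe, Cenpf, the scaffold Knl1 and the Ndc80 complex genes Ndc80, Nuf2 and Spc25, all 7 rose under C16 (median 0.72, from 0.47 to 0.82) and fell under RE (median −0.57, from −0.64 to −0.19). Cenpe (chr3:134918324-134979301) had 194, 183 and 185 CPM under C16 and 80.1, 75.2 and 72.5 CPM under RE, against 123, 98.1 and 108 CPM under DMSO. It changed by 0.72 ± 0.08 (adjusted p = 3e-05) and −0.57 ± 0.08 (adjusted p = 0.0015). Knl1 (chr2:118877600-118940978) was near the bottom under RE, with 71.9, 64.4 and 62.1 CPM against 105, 93 and 102 CPM under DMSO (−0.64 ± 0.06, adjusted p = 0.00061). Cenpa (chr5:30824214-30832181) had the smallest fall of those called, with 75.5, 75.5 and 79.2 CPM under RE against 88.1, 80.9 and 87.4 CPM under DMSO (−0.19 ± 0.06, adjusted p = 0.03). Spc25 (chr2:69009753-69036583) rose least of the kinetochore genes under C16, with 48.8, 49 and 48.6 CPM against 36.2, 32.8 and 33.4 CPM under DMSO (0.47 ± 0.08, adjusted p = 0.00059).

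All 10 genes of spindle motors and microtubule binding, Kif11, Kif15, Kif2c, Kif22, Kif4, Nusap1, Tpx2, Hmmr, Aspm and Tacc3, rose under C16 (median 0.77, from 0.66 to 0.96) and fell under RE (median −0.52, from −0.61 to −0.40). Kif11 (chr19:37364830-37410311), the kinesin that pushes spindle poles apart, had 278, 273 and 286 CPM under C16 and 114, 106 and 103 CPM under RE, against 167, 140 and 160 CPM under DMSO. It changed by 0.79 ± 0.07 (adjusted p = 8e-06) and −0.57 ± 0.07 (adjusted p = 0.00087). Tpx2 (chr2:152689859-152737241), which activates Aurka on the spindle, had 252, 255 and 255 CPM under C16 and 103, 95 and 95.5 CPM under RE, against 154, 131 and 152 CPM under DMSO. The 3 groups of both genes were apart, and Tpx2 changed by 0.75 ± 0.06 (adjusted p = 8.4e-06) and −0.61 ± 0.06 (adjusted p = 0.00066). Of the exon bases of Kif4 and Tacc3, 13.9% and 12.6% overlap other genes.

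The 7 cytokinesis genes, Prc1, Kif20a, Kif20b, Kif23, Racgap1, Ect2 and Anln, also rose under C16 (median 0.76) and fell under RE (median −0.51). Racgap1 (chr15:99518377-99549504), which with Kif23 forms the centralspindlin complex, had 132, 140 and 155 CPM under C16 and 67.6, 63.4 and 61.9 CPM under RE, against 98.4, 80.9 and 91.5 CPM under DMSO. It changed by 0.61 ± 0.08 (adjusted p = 0.00013) and −0.53 ± 0.08 (adjusted p = 0.0023). Anln (chr9:22243305-22302132) had 50.4, 44.6 and 45.6 CPM under RE against 75.3, 63.2 and 76.2 CPM under DMSO, without overlap (−0.65 ± 0.08, adjusted p = 0.001). Kif20a had 61.7, 58.3 and 56.9 CPM under C16 and 22.8, 20.9 and 22.7 CPM under RE, against 30.2, 27.9 and 27.4 CPM under DMSO, a 2-fold rise under C16 (standard error of the log2 change 0.06, adjusted p = 2.2e-06). Since 66.4% of its exon bases overlap Brd8 or Cdc23 and counting ignored strand, its count is uncertain to that extent. Fragments on the shared bases may be missing from it or may belong to these genes. Brd8 and Cdc23 rose by 0.41 ± 0.03 and 0.51 ± 0.05 under C16.

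The 6 genes of chromosome structure and proliferation were Top2a, Mki67 and the condensin genes Ncapg, Ncapd2, Smc2 and Smc4. Their changes lay close together, from 0.62 to 0.78 under C16 and from −0.61 to −0.48 under RE. Top2a (chr11:98883773-98915037) had 950, 919 and 908 CPM under C16 and 406, 373 and 372 CPM under RE, against 601, 520 and 579 CPM under DMSO. Mki67 (chr7:135291513-135318286), which coats mitotic chromosomes and encodes the Ki-67 proliferation antigen, had 1070, 1070 and 1160 CPM under C16 and 504, 461 and 470 CPM under RE, against 720, 618 and 735 CPM under DMSO. The groups of both genes were apart, with changes of 0.66 ± 0.06 (adjusted p = 1.2e-05) and −0.60 ± 0.06 (adjusted p = 0.00053) for Top2a and 0.62 ± 0.07 (adjusted p = 5e-05) and −0.57 ± 0.07 (adjusted p = 0.0011) for Mki67. Ncapd2 (chr6:125144970-125169062), a condensin subunit, had 388, 380 and 404 CPM under C16 and 158, 147 and 156 CPM under RE, against 243, 212 and 231 CPM under DMSO. It changed by 0.72 ± 0.06 (adjusted p = 5.5e-06) and −0.61 ± 0.06 (adjusted p = 0.00048). For Ncapg, 30.7% of exon bases overlap Lcorl, which rose by 0.34 ± 0.12 under C16 (adjusted p = 0.033).

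**Figure D4:**
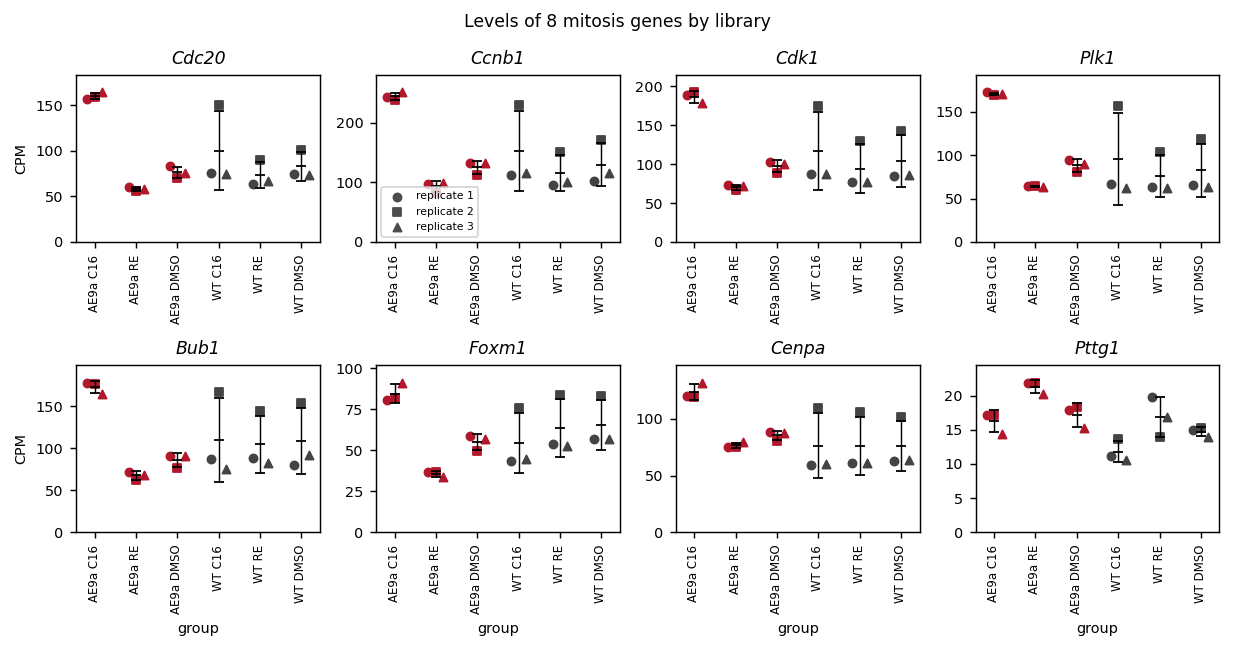
CPM (vertical axes) of 8 mitosis genes in each library by group (horizontal axes), with symbols for replicate numbers and bars for the mean ± SD of 3 libraries. In 7 of the 8 the AE9a C16, DMSO and RE libraries separate in that order, Pttg1 does not follow it, and WT replicate 2 (squares) is the highest WT library in all but Pttg1 under RE.

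Nearly all genes moved the same way in AE9a cells, so a split by promoter letters could not part their directions. The part of the CHR element in these responses was not tested. Of the 39 genes with a CHR match, 39 rose under C16 (median 0.75, from 0.36 to 1.02) and 39 fell under RE (median −0.50). Of the 9 genes with a window but no such match, 8 rose under C16 (median 0.72) and 8 fell under RE (median −0.51), the exception in both being Pttg1. Ccnb1, with 0 matches of the CHR letters in the window printed above, changed about as much as Cdk1 and Plk1, which have 2 and 1. Only TTTGAA and TTCGAA were searched, so a window without a match may still hold another form of the element.

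Other genes of cell division moved the same way in AE9a cells, though less uniformly. Of 119 other mitosis genes, C16 raised 100 and lowered 11 (median 0.55), and RE raised 5 and lowered 87 (median −0.34). Those with the largest rises under C16 were Cenpp, a centromere protein, at 13.2 against 6.26 CPM under DMSO (1.03 ± 0.10), Spc24, a subunit of the Ndc80 complex, at 57.6 against 28.3 CPM (0.98 ± 0.10) and Cks1b, a paralog of Cks2, at 110 against 55.8 CPM (0.93 ± 0.06). Those with the largest falls were Cdc25b, a phosphatase that activates Cdk1, at 29 against 54.2 CPM (−0.95 ± 0.07), and the anaphase-promoting complex subunits Anapc15 at 42.9 against 65.9 CPM (−0.67 ± 0.09) and Anapc11 at 39.1 against 59.7 CPM (−0.66 ± 0.09). Under RE, Anapc15 rose by 0.54 ± 0.09, while Mybl2, a transcription factor of the G2/M wave, fell by 0.67 ± 0.08 on the log2 scale. Of 54 DNA replication genes, C16 raised 53 and lowered Rfc2, a clamp loader subunit (median 0.68), and RE raised Rfc2 and lowered 50 (median −0.46). Rrm2, a subunit of ribonucleotide reductase, had 469 CPM under C16 against 225 CPM under DMSO (1.01 ± 0.08), and Gins1, a subunit of the replicative helicase, fell by 0.76 ± 0.07 under RE on the log2 scale.

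In WT cells neither compound moved the mitosis genes by a call. C16 over DMSO gave 0 higher and 0 lower by edgeR, where 0.957% of the 15046 genes tested rose and 2.15% fell. The median was 0.08, and DESeq2 called 0 of the 55. By edgeR, 0 of the 55 genes had an unadjusted p under 0.05, against 3430 of the 15046 genes tested. The mitosis genes were spread widely between WT libraries: Cdc20 changed by 0.28 ± 0.29, where its standard error in AE9a cells was 0.06. An absent call in WT cells therefore does not show that a gene was unmoved. RE over DMSO gave 0 and 0, where 0% of genes tested rose and 0.0266% fell, with a median of −0.12 and 0 calls by DESeq2. By edgeR, 0 of the 55 genes and 665 of all genes tested had an unadjusted p under 0.05. C16 over RE gave 0 and 0, where 5.4% rose and 6.49% fell. Its median was 0.22, and DESeq2 called 1 of the 55 lower. By edgeR, 2 of the 55 genes and 4495 of all genes tested had an unadjusted p under 0.05. Cdc20 had 75.6, 150 and 74.7 CPM under C16 and 63.8, 89.7 and 67 CPM under RE, against 74.4, 101 and 73.6 CPM under DMSO. Leaving replicate 2 aside, its C16 and DMSO libraries all lay between 73.6 and 75.6 CPM.

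Replicate 2 was the highest WT library of its group in 55 genes under C16, 54 under RE and 55 under DMSO. Its median ratio to the mean of replicates 1 and 3 was 1.83 under C16, 1.52 under RE and 1.59 under DMSO. Mki67 shows it, with 602, 1050 and 571 CPM under C16 and 521, 1080 and 552 CPM under RE, against 583, 1080 and 619 CPM under DMSO. Its log2 change under C16 was −0.03 ± 0.39. With the replicate number as a block, C16 over DMSO raised 1 gene (Bub3, 0.26) and lowered 1 (Foxm1, −0.28), RE over DMSO called 0 (of all genes 0.306% rose and 0.206% fell), and C16 over RE raised 18 and lowered Pttg1. Of all genes tested, 10.4% rose and 13.8% fell with the block for C16 over DMSO, and 15.7% and 18.5% for C16 over RE. Without WT replicate 2, C16 over DMSO raised 2 and lowered 7 (of all genes 20.8% and 20.9%), with a median of 0.01. The genes lowered were Pttg1 (−0.40), Cenpf (−0.38), Cdca3 (−0.36), Foxm1 (−0.36), Espl1 (−0.26), Kif23 (−0.20) and Racgap1 (−0.20), and those raised Bub3 (0.22) and Kif4 (0.27). RE over DMSO then lowered Aurkb alone (−0.28), where 4.24% of all genes rose and 3.78% fell, and C16 over RE raised 18 and lowered 5 (22.9% and 21.4%). The names and counts without WT replicate 2 were obtained after the values had been seen.

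The difference between genotypes in the response to C16 was tested in all 18 libraries. It was positive in all 55 genes, with a median of 0.73 against 0.06 over all genes tested, but only Cenpf (0.76 ± 0.24, edgeR adjusted p = 0.046) and Spc25 (0.56 ± 0.17, adjusted p = 0.04) passed, where 4.78% of the 15809 genes tested were called higher and 8.29% lower. For Cdc20 the difference was 0.80 ± 0.31 (adjusted p = 0.1) and for Mki67 0.71 ± 0.41 (adjusted p = 0.25). With the replicate number as a block within each genotype, 53 genes passed (19.4% of all genes), although the numbers did not pair AE9a C16 with AE9a DMSO libraries. Without WT replicate 2 it was 54 (28.9%), and with both changes it was 55 (28.9%). Leaving out WT C16 replicate 2 alone gave 52, leaving out WT DMSO replicate 1 gave 3, and each of the other 10 libraries left out gave 0. The share of all genes is not given here for these single omissions. For RE the difference was negative in 54 genes with a median of −0.36, and 0 passed by edgeR, as did 0 of all genes tested. DESeq2 also called 0 for RE, and 11 were called lower without WT replicate 2, where 0.527% of all genes were.

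Between genotypes, AE9a cells had higher levels of 20 mitosis genes under C16 and lower levels of 11 under RE, relative to WT, with no call under DMSO. Under C16, 0 genes were lower in AE9a cells beside the 20 higher, where 16.1% of all genes tested were higher and 18.9% lower, and the median was 0.61, from 0.24 to 0.90. Cdc20 averaged 160 ± 3.38 CPM in AE9a cells and 100 ± 43.2 CPM in WT cells (SD, n = 3 each; log2 0.68 ± 0.22, adjusted p = 0.031), and Foxm1 averaged 84.5 ± 5.75 and 54.5 ± 18.2 CPM (0.63 ± 0.22, adjusted p = 0.039). Ccnb1 (0.68 ± 0.26, adjusted p = 0.053) and Plk1 (0.84 ± 0.32, adjusted p = 0.052) did not pass. WT C16 replicates 1 and 3 lay below every AE9a C16 library in 55 genes, which was not counted over all genes. WT C16 replicate 2 did so in 46, so that the groups did not overlap in these 46 (20.3% of all genes). Its distance below them was small. Over the 55 genes its root mean square log2 difference was 0.13, 0.12 and 0.14 to AE9a C16 replicates 1, 2 and 3. To WT C16 replicates 1 and 3 it was 0.84 and 0.91. The number called higher was 55 without WT replicate 2, or without WT C16 replicate 2 alone, and 2 without AE9a C16 replicate 2 or 3. It was 0 without AE9a C16 replicate 1, WT C16 replicate 1 or WT C16 replicate 3. Of all genes, 35.6% were higher and 29.7% lower without WT replicate 2, and their share is not given here for single libraries left out.

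Under RE, 0 genes were higher and 11 lower in AE9a cells, where 17.8% of all genes tested were higher and 18% lower, so the share of the 55 genes that was called, unlike their median of −0.45, was near that of all genes. The furthest were Nusap1, which bundles spindle microtubules, at 42.8 ± 3.36 CPM against 80.1 ± 26.5 CPM in WT cells (−0.90 ± 0.25, adjusted p = 0.011), Foxm1 at 35.6 ± 1.9 against 63.3 ± 17.6 CPM (−0.83 ± 0.22, adjusted p = 0.01) and Nuf2, of the Ndc80 complex, at 31.6 ± 2.61 against 53.7 ± 13.2 CPM (−0.77 ± 0.22, adjusted p = 0.016). Centromere and kinetochore genes made up 5 of the 11, but the direction was not particular to them. The median was below 0 in every role, from −0.66 for these genes to −0.35 for the genes of mitotic entry. Without WT replicate 2, 28 were lower and 4 higher (of all genes 26.9% and 27.6%). The count of lower genes was 7, 5 and 5 without AE9a RE replicates 1, 2 and 3 and 3 without WT RE replicate 2. For these single omissions the share of all genes is not given here. WT RE replicates 1 and 3 lay above every AE9a RE library in 39 genes, which was not counted over all genes.

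Under DMSO, 0 genes were called by edgeR and 0 by DESeq2, where 12.9% of all genes tested rose in AE9a cells relative to WT and 13.8% fell. Of all 15809 genes tested, 6117 had an unadjusted p under 0.05 by edgeR, and of the mitosis genes 1. The median was −0.13 with all libraries and 0.16 without WT replicate 2, when 22 genes were higher and 0 lower (of all genes 24.8% and 25.9%). Plk1 averaged 88.4 ± 7.4 CPM in AE9a cells and 82.3 ± 30.6 CPM in WT cells (0.10 ± 0.31, adjusted p = 0.84). Its WT libraries, at 65.5, 118 and 63.8 CPM, lay on both sides of the AE9a libraries at 94.8, 80.3 and 90 CPM. WT DMSO replicates 1 and 3 lay below every AE9a DMSO library in 23 genes, and WT DMSO replicate 2 above every one in 54. Neither count was made over all genes, so they cannot be read as particular to the mitosis genes.

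**Figure D5:**
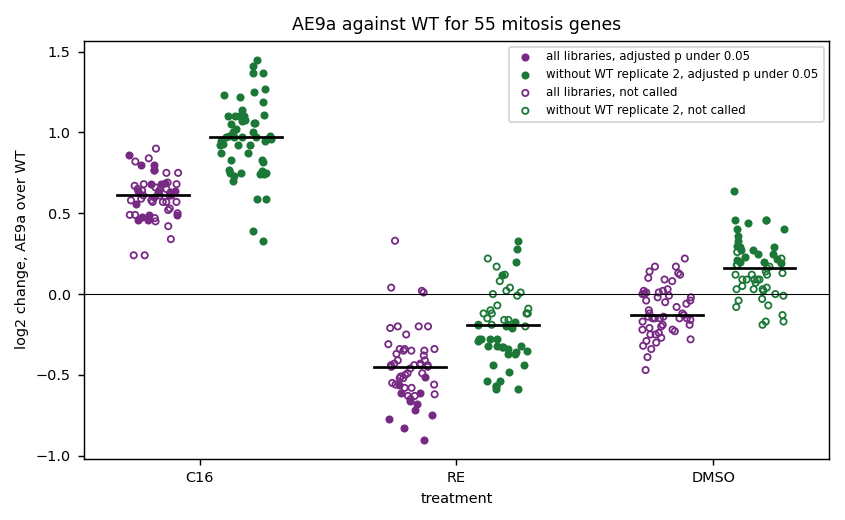
Log2 change of AE9a over WT for each of the 55 mitosis genes (points) under C16, RE and DMSO, with all libraries (purple) and without WT replicate 2 (green). Lines are medians and filled points have an adjusted p under 0.05: the median is 0.61 and 0.97 under C16, −0.45 and −0.19 under RE, and −0.13 and 0.16 under DMSO.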

How the data were processed

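RNA was sequenced from 18 libraries, and the files analysed hold counts of fragments per gene, deposited by the authors as a table for each genotype. Per the submitters' processing notes, the tools were FastQC 0.11.9, fastp 0.23.2, HISAT2 2.1.0 and featureCounts 2.0.3 with GRCm39; per the file headers, featureCounts 1.6.2 counted read pairs over exons without regard to strand, and which version was used is not known. Library totals of 16053727 to 27207748 fragments left at least 201 per mitosis gene.

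Genes passing filterByExpr (14704 in AE9a, 15046 in WT, 15809 in all libraries) were scaled by TMM and tested by edgeR 4.0.16 (R 4.3.3) quasi-likelihood F tests, adjusted over all genes tested by Benjamini-Hochberg at 0.05. Fits used the 9 libraries of 1 genotype for compounds and all 18 for genotypes and differences of responses. CPM are scaled over 18 libraries, so fitted changes differ slightly from ratios of CPM, and FPKM divide CPM by the deposited exon length. Alternatives were DESeq2 1.42.0, RLE and upper-quartile scaling, no filter, blocks, another set of libraries and leaving out each library. Biological variation (coefficient) was 0.103 in AE9a and 0.329 in WT cells, and 0.0819 and 0.137 with blocks. The scripts were tested on simulated data.

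Same-number deviations correlated at 0.66, 0.79 and 0.66 between WT C16 and DMSO, 0.69, 0.87 and 0.70 between WT RE and DMSO, and 0.56, 0.73 and 0.66 between WT C16 and RE, which replicate 2 alone can produce. They correlated at 0.43, 0.29 and 0.38 between AE9a RE and DMSO, 0.13, 0.13 and 0.13 between AE9a C16 and RE, and 0.06, 0.31 and 0.20 between AE9a C16 and DMSO, so among these only the last is treated as not paired. Between AE9a and WT they correlated at 0.15, −0.27 and −0.24 under C16, −0.06, 0.08 and 0.12 under RE and −0.04, −0.15 and −0.09 under DMSO, so the numbers do not pair libraries across genotypes.

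The members and lists were chosen with earlier results of these data known. Genes named are 14 fixed ones, at least 1 for most roles, the 3 highest and 3 lowest in each comparison and any called against the rest. The analysis with a block and without WT replicate 2 was added after seeing the data.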

Additional observations from a re-analysis of the deposited data

Results flagged for a closer look

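The response to C16 differed between genotypes by a test of the difference itself (an interaction of genotype and treatment over 18 libraries) in 2 of the 55 mitosis genes, both higher, a share below the 4.78% of all genes tested that were called higher. Which genes passed was not stable: 0 passed when any of 10 single libraries was left out, 3 without WT DMSO replicate 1 and 52 without WT C16 replicate 2. With the replicate number as a block within each genotype 53 passed, where 19.4% of all genes were called higher. For Cenpf, a large kinetochore protein, the log2 difference, AE9a minus WT, was 0.76 (edgeR adjusted p = 0.046). Its levels were 116, 110 and 114 CPM in AE9a C16 against 83.2, 71.8 and 79.4 CPM in AE9a DMSO cells, and 67.4, 107 and 69.4 CPM in WT C16 against 84, 108 and 94.3 CPM in WT DMSO cells. All AE9a C16 libraries lay above the AE9a DMSO libraries, whereas the WT groups overlapped. For Spc25, of the Ndc80 complex, the difference was 0.56 (edgeR adjusted p = 0.04). It had 48.8, 49 and 48.6 CPM in AE9a C16 against 36.2, 32.8 and 33.4 CPM in AE9a DMSO cells, and 39, 45.4 and 39.2 CPM in WT C16 against 36.4, 50.5 and 40.8 CPM in WT DMSO cells. Of these 2 genes Spc25 varied less between WT libraries. Genotype and the separate count tables cannot be told apart, and the part of cell type composition was not tested.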

How the results depend on the processing

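In AE9a cells, C16 raised 54 genes under each alternative except the fit of all 18 libraries (49), and its leave-one-out counts were all 54. RE lowered 50 to 54 with single libraries left out and 0 in the fit of all 18 libraries, and raised 1 (Pttg1) under upper-quartile scaling and with the replicate block. In WT cells, C16 over DMSO gave 1 higher and 1 lower with the replicate block, 2 and 7 without WT replicate 2, and 2 and 6 with both. RE over DMSO gave 1 lower without WT replicate 2 and 1 with both. C16 over RE gave 18 higher and 1 lower with the replicate block, 18 and 5 without WT replicate 2, 15 and 5 with both, 1 and 1 in the fit of all 18 libraries, 1 lower by DESeq2 and 0 to 1 lower with single libraries left out. AE9a over WT under DMSO gave 22 higher without WT replicate 2, 1 lower under upper-quartile scaling and 0 to 1 lower with single libraries left out, and the replicate block called 0. Under C16 it gave 10 higher with no count filter, 34 by DESeq2, 47 with the replicate block, 55 without WT replicate 2 and 0 to 55 with single libraries left out. Under RE it gave 17 lower under upper-quartile scaling, 4 higher and 28 lower without WT replicate 2, 1 higher each under RLE scaling, by DESeq2 and with the replicate block, and 0 to 1 higher and 3 to 10 lower with single libraries left out. The genotype difference of the C16 response gave 5 under upper-quartile scaling, 0 with no count filter, 8 by DESeq2, 53 with the replicate block, 54 without WT replicate 2, 55 with both and 0 to 52 with single libraries left out. That of the RE response gave 11 lower without WT replicate 2 and 16 with both. For AE9a over WT the libraries share only a number, so the counts with the replicate block rest on no pairing. Except where shares are printed above, these counts of the 55 genes stand without the share of all genes called under the same alternative. What is particular to the mitosis genes cannot be read from them, and the cause of these moves was not tested.

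Directions turned in the weak comparisons only, among the results run. AE9a over WT under DMSO had a median of 0.16 without WT replicate 2, when Cdc20 was at 0.05, Ccnb1 at 0.22 and Mki67 at 0.21, and Ccnb1 was at 0.00 with the replicate block. Plk1 under RE was at 0.04 without WT replicate 2. Pttg1 in the genotype difference of the RE response was at −0.04 without WT replicate 2 and −0.03 with the block too. With single libraries left out, C16 over DMSO in WT cells ran from −0.14 to 0.45 for Cdc20, −0.17 to 0.49 for Ccnb1, −0.34 to 0.56 for Plk1 and −0.37 to 0.30 for Mki67. RE over DMSO ran from −0.41 to 0.09 for Ccnb1, −0.41 to 0.24 for Plk1 and −0.51 to 0.26 for Mki67. C16 over RE ran from −0.01 to 0.65 for Ccnb1, −0.23 to 0.62 for Plk1 and −0.28 to 0.48 for Mki67. AE9a over WT under DMSO ran from −0.25 to 0.16 for the median, −0.20 to 0.05 for Cdc20, −0.17 to 0.22 for Ccnb1, −0.05 to 0.46 for Plk1 and −0.29 to 0.21 for Mki67, that under RE from −0.38 to 0.05 for Plk1, and the genotype difference of the RE response from 0.00 to 0.24 for Pttg1.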
